A study of Canis lupus familiaris with 4 samples.

Results

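Beta-casein (CSN2) and alpha-lactalbumin (LALBA) are major proteins of milk. They were followed here through every non-control probe of a canine two-colour expression array whose annotated accession is the dog RefSeq mRNA of either gene. This gave 3 of the 43603 probes, 1 for CSN2 (A_11_P0000019809, NM_001003086) and 2 for LALBA (A_11_P050011 and A_11_P0000019850, both NM_001003129), each printed as 1 spot per array. Each of 4 arrays carried a pair of RNAs, one given in the labels as canine mammary tumours of the most malignant grade (grade 3) and one as tumours of a less malignant grade (grade 1). Grade 3 was labelled with Cy5 and grade 1 with Cy3 on 2 arrays, and the dyes were exchanged on the other 2. The study asked how expression differs between the grades. The titles speak of tumours, but the protocols, which are the same for all 4 arrays, describe cultured cancer cells kept with sorted monocytes for at least 72 h and then separated from them by flow cytometry. Which of these was hybridised cannot be told from the labels. The labels call the arrays biological replicates and name neither dog nor cell line nor breed, age or reproductive state. Nothing says which arrays share an RNA extract, and all p-values refer to the spread from array to array, part or all of which may be technical.

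Beta-casein is one of the caseins, the phosphoproteins that bind calcium and assemble into the micelles of milk. Alpha-lactalbumin is a whey protein that joins the galactosyltransferase B4GALT1 to form lactose synthase, and so makes lactose production possible. Both genes are switched on in the luminal secretory cells of the mammary gland in late pregnancy and lactation, under prolactin, glucocorticoids and insulin. Prolactin acts through its receptor, the kinase JAK2 and the transcription factor STAT5, and progesterone holds milk secretion back until birth. Both genes are widely used as markers of secretory differentiation of the mammary epithelium.

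Both milk genes were higher in grade 3, on every array and by every probe, as were 28.7% of the 35411 probes tested. The fitted difference was 7.03-fold for CSN2 and 5.66-fold and 5.50-fold for the 2 LALBA probes. The size of the CSN2 difference varied with the dye that grade 3 carried, and for LALBA no dye term was called. The signals of all 3 probes were well above background in both grades on all 4 arrays, so both genes were detected in grade 1 as well. In RNA from bulk samples, fewer cells that make a transcript and less of it per cell cannot be told apart.

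The scanner signals come first. For CSN2 the grade 3 spot signal, as the median pixel intensity before any correction, was 425725 and 391273 on the arrays with grade 3 in Cy5 and 364685 and 334406 on those with grade 3 in Cy3. The local background beside these spots was 30.5 to 49 units. The grade 1 signal of the same spots was 12848 and 18706.5 in Cy3, and 94306 and 89201.5 in Cy5. Grade 3 was therefore the brighter channel on every array, and the grade 1 signals formed a low pair in Cy3 and a high pair in Cy5. No member spot was saturated: the brightest CSN2 signal reached 54.7% of the scanner's saturation value of 778299 units in Cy5, and the lowest of grade 3 was at 42.9% of the value in Cy3.

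LALBA was bright as well. Probe A_11_P050011 gave grade 3 signals of 117904 and 122534 units in Cy5 and of 97063.5 and 92439 in Cy3. Its grade 1 signals were 8668 and 9297 in Cy3 and 18280 and 17826 in Cy5. The grade 1 signals again formed a low pair in Cy3 and a high pair in Cy5, closer together than those of CSN2. Probe A_11_P0000019850 gave 91764 and 87862 units in Cy5 and 72473 and 75592 in Cy3 for grade 3. Its grade 1 signals were 7106 and 7457 in Cy3 and 13179 and 14299 in Cy5. Every LALBA signal was at least 197 times its local background, and the grade 3 and grade 1 signals did not overlap for either probe.

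Levels were then expressed as log2 intensity of each channel after background correction, loess normalization within each array and quantile normalization of mean intensities between arrays. CSN2 had levels of 18.10 and 18.08 in grade 3 on the arrays with grade 3 in Cy5 and of 18.51 and 18.38 on the others. In grade 1 it had 14.51 and 14.87 in Cy3 and 16.23 and 16.19 in Cy5. The mean was 18.27 ± 0.21 in grade 3 and 15.45 ± 0.89 in grade 1 (SD, n = 4 arrays). The lowest grade 3 level lay 1.85 above the highest grade 1 level, on the log2 scale. The grade 1 levels split by dye, with a Cy5 mean 1.52 above the Cy3 mean, whereas in grade 3 Cy5 minus Cy3 was -0.35.

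For LALBA the levels were closer together. By probe A_11_P050011 grade 3 had 16.24, 16.46, 16.55 and 16.39, and grade 1 had 13.80, 13.78, 14.07 and 13.99, in the order replicate 1 and 2 with grade 3 in Cy5, then replicate 1 and 2 with grade 1 in Cy5. The means were 16.41 ± 0.13 and 13.91 ± 0.14 (SD, n = 4), with a gap of 2.17 between the lowest grade 3 and the highest grade 1 value. By probe A_11_P0000019850 the means were 16.03 ± 0.10 and 13.57 ± 0.11 (SD, n = 4), with a gap of 2.21. The grade 1 levels of both LALBA probes were slightly higher in Cy5 than in Cy3, by 0.24 and 0.19. Levels of grade 3 that all lay above those of grade 1 were seen in 23.0% of the tested probes, so the lack of overlap is not particular to the milk genes.

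**Figure D1:**
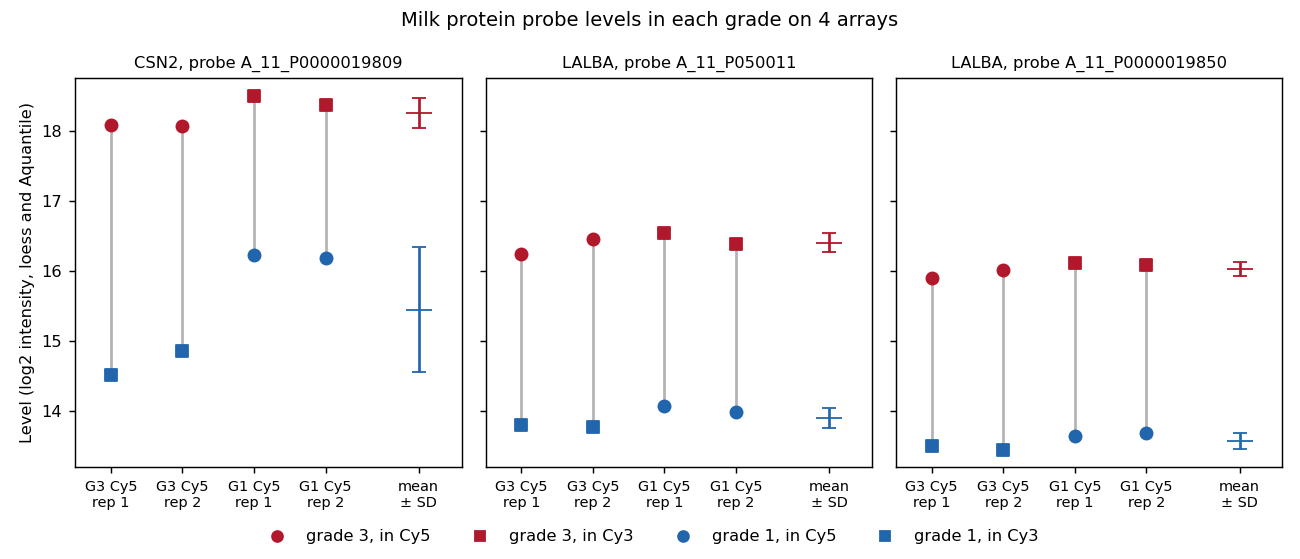
Level of each milk protein probe (log2 intensity after normalization, vertical axis) in grade 3 (red) and grade 1 (blue) on each of the 4 arrays, with circles for Cy5 and squares for Cy3 and grey lines joining the channels of an array; bars at the right are the mean ± SD over 4 arrays. The grades do not overlap for any probe, and the grade 1 levels of CSN2 split by dye, at 14.51 and 14.87 in Cy3 and 16.23 and 16.19 in Cy5.

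The ratio of grade 3 over grade 1 was taken within each array. For CSN2 it was 12.0-fold and 9.27-fold on the arrays with grade 3 in Cy5, and 4.83-fold and 4.55-fold on those with grade 1 in Cy5. All 4 ratios were above 1, and the higher pair did not overlap the lower pair. For LALBA probe A_11_P050011 the ratios were 5.42-fold and 6.42-fold in the first orientation and 5.58-fold and 5.29-fold in the second. For probe A_11_P0000019850 they were 5.28-fold and 5.91-fold, then 5.58-fold and 5.26-fold. The LALBA ratios thus stayed between 5.26-fold and 6.42-fold, and replicate 2 with grade 3 in Cy5 gave the highest by both probes.

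A model with a grade term and a dye term for each probe was fitted across all tested probes. CSN2 had a log2 fold change of 2.81 ± 0.06 (SE, n = 4 arrays; 95% interval 2.67 to 2.96; limma adjusted p = 1.06e-09), or 7.03-fold with an interval of 6.37 to 7.76. LALBA had 2.50 ± 0.05 by probe A_11_P050011 (95% interval 2.38 to 2.62; limma adjusted p = 8.96e-10), or 5.66-fold with an interval of 5.20 to 6.17. By probe A_11_P0000019850 it had 2.46 ± 0.05 (95% interval 2.35 to 2.57; limma adjusted p = 6.11e-10), or 5.50-fold with an interval of 5.08 to 5.95. These errors describe the spread that remains once the dye term is taken out, with 2 residual degrees of freedom per probe. Without a dye term the CSN2 estimate was the same, and its SE grew to 0.24 (limma adjusted p = 0.000191). An exact sign-flip test over 4 arrays cannot give a two-sided p below 0.125, so these p-values rest on the model.

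A call at an adjusted p of 0.05 was common on these arrays: 31.2% of tested probes were called higher in grade 3 and 30.5% lower, and the call alone does not set the milk genes apart. The size of their change was less common. Called changes of at least 4-fold upward made up 0.232% of tested probes, and the absolute log2 fold change had a median of 0.19. Of all tested probes 16 had a higher fold change than CSN2, and 38 and 41 had a higher one than LALBA probes A_11_P050011 and A_11_P0000019850. Among 925 named genes, each by its brightest probe, 4 were above CSN2 and 6 above LALBA by its brighter probe, A_11_P050011. The position moved with the processing: with the same model fitted to the authors' deposited table, 70 probes were above CSN2 and 115 and 125 above the LALBA probes, and with local backgrounds as measured 7, 13 and 16 were. Within the arrays with grade 1 in Cy5 55 probes were above CSN2, and within those with grade 3 in Cy5 only 9 were. Because the pair was taken up with these results known, that position is a description and carries no test.

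**Figure D2:**
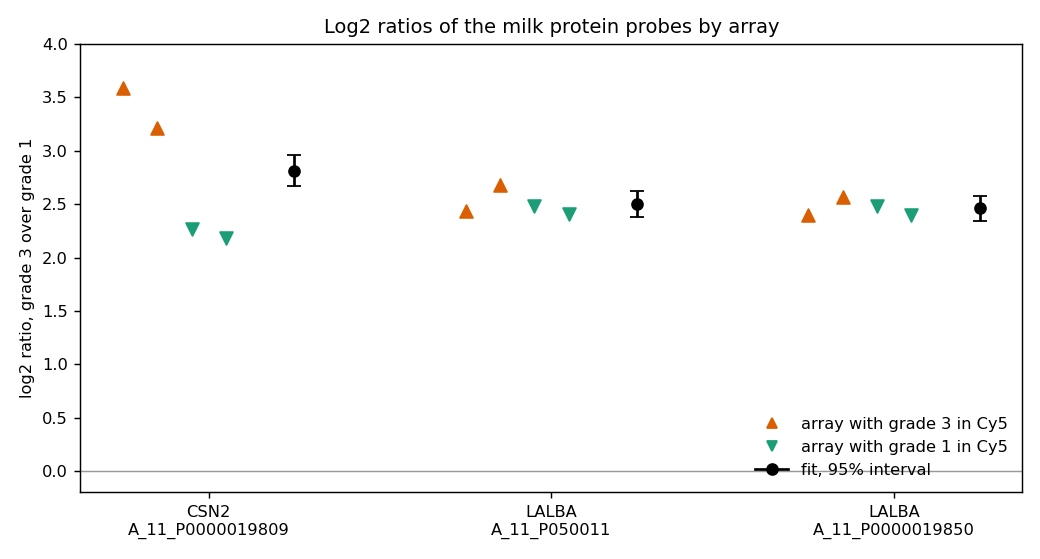
Log2 ratio of grade 3 over grade 1 (vertical axis) for each milk protein probe, with upward triangles for arrays with grade 3 in Cy5, downward triangles for arrays with grade 1 in Cy5, and black points for the fitted value with its 95% interval. CSN2 splits into a pair at 3.59 and 3.21 and a pair at 2.27 and 2.19, and the LALBA ratios lie between 2.40 and 2.68.

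The orientations were compared directly for each probe. With grade 3 in Cy5 the mean CSN2 ratio was 10.5-fold and with grade 1 in Cy5 it was 4.69-fold. The dye term of CSN2 was 0.59 ± 0.06 on the log2 scale (SE, n = 4, limma adjusted p = 0.00145), and 92 of the 35411 tested probes had a larger one. For LALBA the means were 5.90-fold and 5.43-fold by probe A_11_P050011 and 5.59-fold and 5.42-fold by probe A_11_P0000019850. Their dye terms were 0.06 ± 0.05 and 0.02 ± 0.05 (limma adjusted p = 0.472 and 0.787). The dye term was called for 19.9% of all tested probes, and for 86 of the 100 brightest, whose median dye term was 0.58. On each array between 109 and 382 probes had a brighter spot than CSN2. The part of brightness in the CSN2 dye term was not tested.

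The split by dye was also present without the loess step. Signal minus local background gave CSN2 ratios of 33.2-fold and 20.9-fold with grade 3 in Cy5, against 3.87-fold and 3.75-fold with the dyes exchanged. The corresponding LALBA ratios were 13.6-fold and 13.2-fold against 5.32-fold and 5.19-fold by probe A_11_P050011, so that a dye difference was visible for LALBA too until the arrays were normalized. In the authors' deposited table of log ratios, which rests on the scanner software's own normalization, CSN2 had 11.4-fold and 8.36-fold, then 5.84-fold and 5.33-fold. The same deposited table of the authors gave LALBA 5.60-fold, 6.51-fold, 5.75-fold and 5.38-fold by probe A_11_P050011. By probe A_11_P0000019850 the authors' deposited table held 5.31-fold, 6.15-fold, 5.52-fold and 5.32-fold. Grade 3 was higher on all 4 arrays in each of these versions.

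Whether CSN2 differed more between grades than LALBA was not settled. The log2 ratio of CSN2 exceeded that of LALBA probe A_11_P050011 by 1.15 and 0.53 on the arrays with grade 3 in Cy5, and the difference was -0.21 and -0.22 on the other arrays. The mean difference was 0.31 ± 0.66 (SD, n = 4; exact two-sided sign-flip test p = 0.5, and 0.5 after adjustment over 3 pairs of probes). Against probe A_11_P0000019850 it was 0.35 ± 0.69 (SD, n = 4; exact two-sided sign-flip test p = 0.5). CSN2 was thus ahead of LALBA in one orientation and behind it in the other. The SDs and the sign-flip tests take the 4 arrays as alike, so this split by dye is part of their spread. The 2 LALBA probes differed by 0.04 ± 0.05 (SD, n = 4), in the same direction on all 4 arrays, where the exact two-sided sign-flip test gives 0.125, the smallest p it can give, and 0.375 after adjustment over the 3 pairs.

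**Figure D3:**
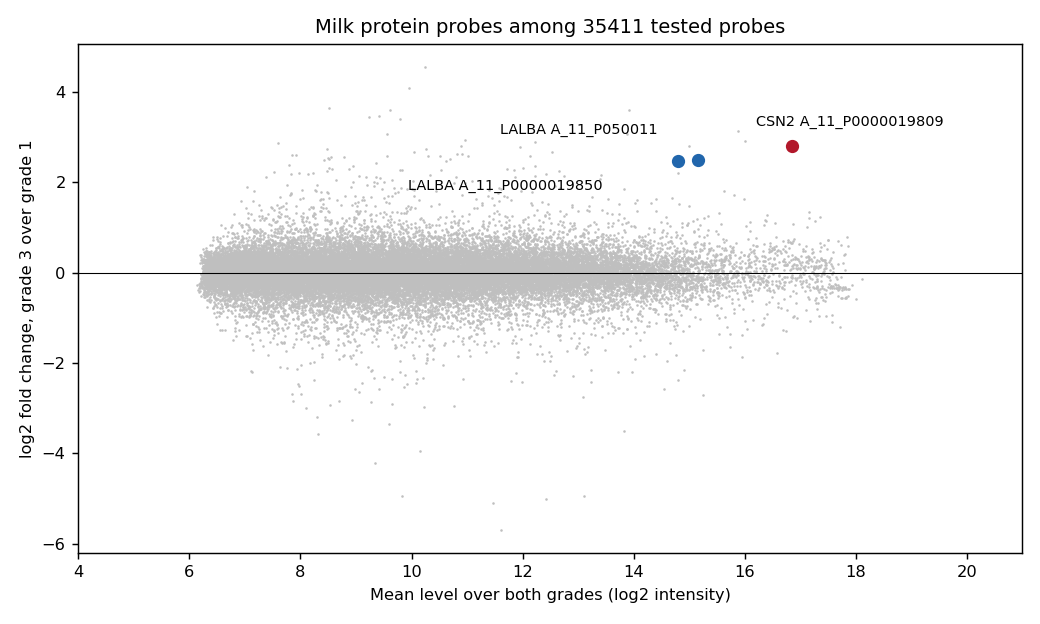
Mean level over both grades (log2 intensity, horizontal axis) against log2 fold change of grade 3 over grade 1 (vertical axis) for the 35411 tested probes (grey), with CSN2 in red and the LALBA probes in blue. The milk protein probes lie at the bright end and far above the bulk of probes, at 2.81, 2.50 and 2.46.

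The other measured genes of lactation did not all follow the pair. Of 25 listed genes of milk proteins and the milk fat globule 3 were among the named probes, and all 3 were called higher, where 24.1% of the 925 named genes were called higher and 46.1% lower. The third was MUC1, a membrane mucin of the luminal surface that is also carried on milk fat globules. The median log2 fold change of the list was 2.50, where that of all tested probes was 0.0046, and the pair itself makes up most of the list. MUC1 had log2 ratios of 1.15, 1.00, 1.24 and 1.36 on the 4 arrays, and its fitted value was 1.18 ± 0.05 (SE, n = 4, limma adjusted p = 6.12e-08), or 2.27-fold. The other caseins, CSN1S1 and CSN3, and the whey genes WAP and LTF were not analysed here.

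The list of prolactin and lactation signalling held 41 genes, of which 9 were tested, with 1 called higher, 4 lower and 4 not called, and a median log2 fold change of 0.01. Beside the 24.1% higher and 46.1% lower of all named genes, these counts do not set the list apart. OXTR, the receptor for oxytocin that triggers milk ejection from myoepithelial cells, was higher by 0.29 ± 0.05 on the log2 scale (limma adjusted p = 0.00131). With local backgrounds used as measured, its adjusted p from limma was 0.127. The progesterone receptor gene PGR was lower, with ratios of -0.54, -0.60, -0.60 and -0.55 on the 4 arrays and a fitted value of -0.57 ± 0.05 (limma adjusted p = 4.38e-06). The growth hormone receptor gene GHR was also lower (-0.49 ± 0.05), as were GH1, encoding growth hormone (-0.46 ± 0.05), and SOCS3, encoding an inhibitor of cytokine signalling through JAK kinases (-0.46 ± 0.06). GHR, GH1 and SOCS3 were not called with local backgrounds used as measured (limma adjusted p = 0.0805, 0.0617 and 0.132). With scaling to spike-in controls GHR, GH1, SOCS3 and PGR turned to values above 0, up to 0.21, so their direction holds relative to the other probes of the array.

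Prolactin itself was not called. The PRL probe, well above background in both grades, had a log2 fold change of 0.06 ± 0.05 (limma adjusted p = 0.35), with levels of 6.64 in grade 3 and 6.58 in grade 1. These levels are low: the brightest POU1F1 probe, not well above background in grade 1, had 6.16 there. With the deposited value table PRL had 0.04 ± 0.08 (limma adjusted p = 0.655). PRL was named here after its value had been seen. INS (insulin), LIF, a cytokine that acts through STAT3, and CCND1 (cyclin D1) were not called either, with log2 fold changes of 0.01, 0.06 and 0.14. CCND1 was called higher when the array of replicate 2 with grade 1 in Cy5 was dropped (0.25, limma adjusted p = 0.0113) and with median centring (0.38, limma adjusted p = 0.000929). The prolactin receptor PRLR and the signal carriers JAK2, STAT5A and STAT5B were not analysed here.

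Genes of milk fat, lactose and secretory transport showed small differences. Of 37 listed genes 6 were tested, with 1 called higher, 2 lower and 3 not called, and a median log2 fold change of 0.04, again beside 24.1% higher and 46.1% lower over all named genes. SLC2A1, the main glucose transporter of the mammary cell, was higher by 0.21 ± 0.06 (limma adjusted p = 0.0111), on 3 of 4 arrays. SLC2A1 was no longer called when replicate 1 with grade 1 in Cy5 was left out (limma adjusted p = 0.109), without the dye term (0.19), or with local backgrounds as measured (0.0992). Its second probe had 0.04, and the mean of its probes, 0.12, was not called (limma adjusted p = 0.0545). CA2, a carbonic anhydrase, was lower by a log2 fold change of -0.58 ± 0.05, and PPARG, a regulator of fat storage, by -0.29 ± 0.05; both turned above 0 with spike-in scaling, and PPARG was not called with median centring (-0.083, limma adjusted p = 0.174). SLC35A2, which carries UDP-galactose into the Golgi where lactose is made, had 0.01 ± 0.05 (limma adjusted p = 0.92). CD36, a fatty acid transporter of the fat globule membrane, had 0.08 ± 0.05, and SREBF1, a regulator of lipid synthesis, 0.14 ± 0.07, neither of them called. The second SREBF1 probe had 0.51, and the mean of its probes was called higher (0.32, limma adjusted p = 0.00221). SREBF1 was also called higher without the array of replicate 1 with grade 1 in Cy5 (0.26, limma adjusted p = 0.00697), and SREBF1, CD36 and SLC35A2 were with median centring (0.36, 0.32 and 0.16). By the brightest probe no tested gene of the signalling and synthesis lists reached 1.5-fold.

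**Figure D4:**
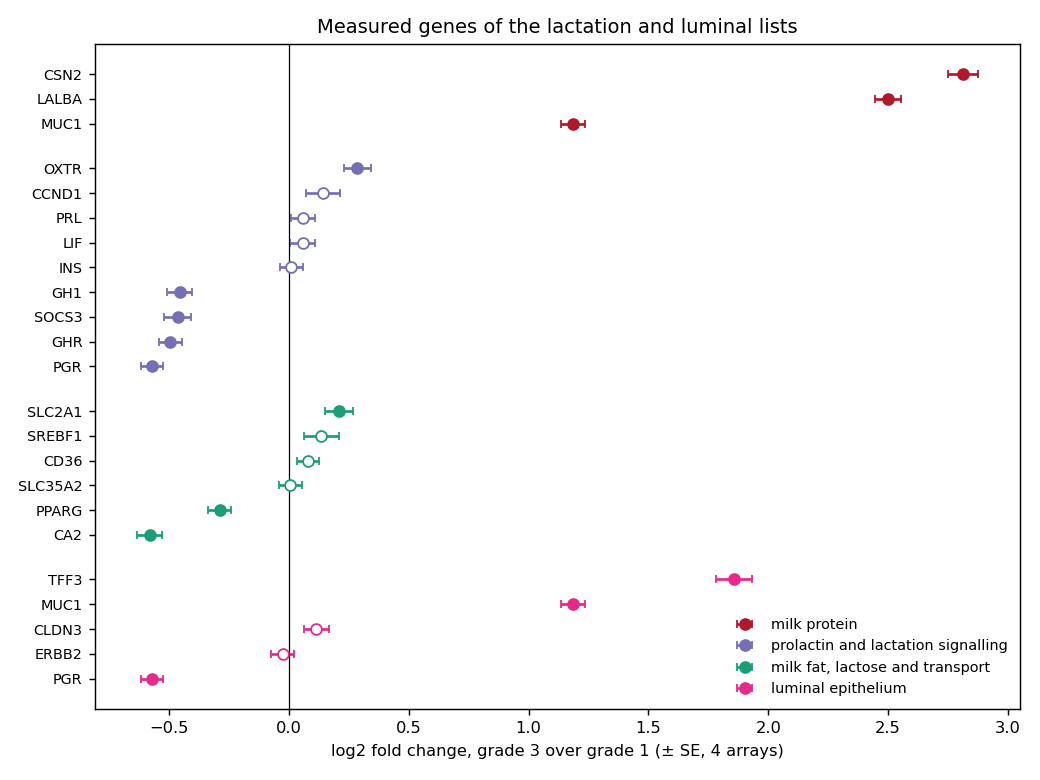
Log2 fold change of grade 3 over grade 1 (horizontal axis, ± SE, 4 arrays) for the measured genes of the milk protein, prolactin signalling, synthesis and luminal lists; filled points passed the adjusted threshold of 0.05 and open points did not. CSN2, LALBA, MUC1 and TFF3 lie above 1, and the other genes lie between -0.58 and 0.29.

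Markers of the cells that make milk were set beside the pair. Of 19 listed genes of the luminal epithelium 5 were tested: TFF3, a secreted trefoil peptide gene, and MUC1 were called higher, PGR was called lower, and CLDN3 and ERBB2 were not called. TFF3 had a log2 fold change of 1.86 ± 0.08, CLDN3, a tight junction gene, 0.11 ± 0.05, and ERBB2, a growth factor receptor gene, -0.03 ± 0.05. CLDN3 was called higher without the array of replicate 2 with grade 3 in Cy5 (0.16, limma adjusted p = 0.0214), and with median centring CLDN3 and ERBB2 both were (0.36 and 0.21, limma adjusted p = 0.000199 and 0.00482). The summed linear level of the 5 probes was 9142 to 11555 units in grade 3 and 8295 to 9374 in grade 1, so the grades overlapped. The sum of the 3 milk list genes was 358835 to 469284 in grade 3 and 38041 to 94732 in grade 1, without overlap. Such sums follow the brightest probes. The milk sum restates CSN2 and LALBA, since MUC1 had log2 levels of only 9.86 in grade 3 and 8.67 in grade 1. In the luminal sum CLDN3 (12.24 and 12.13) and ERBB2 (11.09 and 11.11), neither of them called, weigh most. The sums therefore do not set milk genes against luminal content. KRT8, KRT18, KRT19 and EPCAM, which define the luminal layer, were not analysed here, so the share of epithelial RNA in each grade is not known from these values. Both tested genes of the 11 listed for the myoepithelium, OXTR and CAV1, were called higher, by 0.29 and 0.25, and their summed level overlapped between grades (18720 to 24347 in grade 3, 17033 to 19430 in grade 1). CAV1 was not called without the dye term (limma adjusted p = 0.0868) or with local backgrounds as measured (0.0506).

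Markers of other cell types differed between the grades in both directions, and their part in the milk gene result was not tested. All 6 tested skeletal muscle genes of 14 listed were called, 5 higher and 1 lower, with MYH2 and MYH1 highest at 4.55 and 3.40 by their brightest probes, and the summed level was 18891 to 22027 units in grade 3 and 3295 to 4144 in grade 1. Probes of a muscle gene did not all give that size: further MYH2 and MYH1 probes were as low as 0.40 and 0.68, and the means of their probes were 2.58 and 2.36. TCAP, encoding a protein of the sarcomere's Z-disc, was higher by its brightest probe (1.26), whereas its 3 other probes had -0.18, -0.22 and -0.12, the first 2 of them called lower; it was named after these values were seen. Of 6 tested macrophage and monocyte genes of 14 listed 5 were lower and 1 higher, with FCGR1A at -1.37 and CD163 at -1.14, and the sum was 38048 to 43985 in grade 3 and 70522 to 79953 in grade 1. All 6 tested T and NK cell genes of 10 listed were lower, KLRD1 at -1.41 and CTLA4 at -0.77 (sums 994 to 1063 in grade 3 and 1477 to 1640 in grade 1). The leukocyte lists thus lay lower in grade 3 and the muscle list higher, without overlap of the sums. The macrophage and monocyte sum is weighted towards its brightest probe, that of CCL2, with log2 levels of 14.13 in grade 3 and 15.17 in grade 1. CCL2 was named after its values were seen. Over all named genes 46.1% were called lower, and grade 3 lay wholly below grade 1 in 21.3% of tested probes, so lower calls of marker genes were common among genes at large. Of 5 tested fibroblast genes of 10 listed 4 were lower and 1 not called, COL1A1 at -1.16 and TNC at -0.78 (308005 to 400216 against 480252 to 550538). Further COL1A1 probes had -0.49, -0.40 and -0.80, and the mean of its probes was -0.71. PDGFRB, the gene not called, was called lower by its second probe (-0.16, limma adjusted p = 0.0127). The fibroblast sum is weighted towards COL1A2 (17.20 in grade 3 and 17.74 in grade 1) and DCN (17.07 and 17.41). COL1A2 had log2 ratios of -0.06, 0.32, -1.28 and -1.17 on the 4 arrays. Of 4 tested adipocyte genes of 7 listed 3 were lower and 1 not called, ADIPOQ at -1.42 and PPARG at -0.29 (7530 to 8033 against 8720 to 9068). The adipocyte sum is weighted towards CD36, the gene not called, with log2 levels of 12.23 in grade 3 and 12.15 in grade 1. All 4 tested endothelial genes of 8 listed were lower, ANGPT2 at -0.91 and KDR at -0.61 (36182 to 44030 against 46487 to 55201). The endothelial sum is weighted towards VWF (-0.30), with log2 levels of 15.16 in grade 3 and 15.46 in grade 1. None of the marker genes named here fell below the detection limit of the scanner software in either grade. With local backgrounds as measured KLRD1 and CTLA4 were not called (limma adjusted p = 0.0673 and 0.0632). With spike-in scaling 14 of the 24 marker genes called lower lay above 0 and 8 were still called lower, so these directions hold relative to the other probes of the array. Those above 0 were 3 of the 4 endothelial genes called lower, KDR among them at 0.054, 4 of the 6 of T and NK cells, 2 of the 4 of fibroblasts, 2 of the 3 of adipocytes and 1 of the 5 of macrophages and monocytes, with PGR and 1 muscle gene. CTLA4 and TNC were then not called (limma adjusted p = 0.101 and 0.0573).

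The named genes with the most similar pattern over the arrays were found by the root mean square difference of the 4 log2 ratios, by the brightest probe of each of 923 other named genes. Nearest to CSN2 was COL2A1, the main collagen of cartilage, at a difference of 0.27; its ratios of 3.20 and 3.06 with grade 3 in Cy5 and 2.52 and 2.41 with the dyes exchanged showed the same order of orientations. MYH8 and MYH1, skeletal muscle myosin heavy chain genes, followed at 0.51 and 0.64, with OPTC, encoding the matrix protein opticin, between them at 0.62. LALBA was the fifth nearest to CSN2, at 0.65. Nearest to LALBA, by probe A_11_P050011, were OPTC at 0.10, TMEM132C at 0.37, MYH8 at 0.40, POU1F1 at 0.43 and COL2A1 at 0.43. These distances were taken in the reported setting only. OPTC had a log2 fold change of 2.50 there, 3.32 with the deposited value table and 1.48 with local backgrounds as measured. In the same order MYH8 had 2.36, 2.82 and 1.54, and LALBA 2.50, 2.53 and 2.52. COL2A1 had 2.80, 2.84 and 2.81, and TMEM132C 2.17, 2.20 and 2.09. POU1F1, the pituitary factor that activates the prolactin and growth hormone genes, did not reach a signal well above background in any grade 1 channel. By this probe it was 7.24-fold higher in grade 3 with grade 1 set to a detection floor and the background correction used here. Its other probe had a log2 fold change of -0.04. The 7.24-fold value sets the mean grade 3 level against the mean, over arrays, of the higher of the probe's own grade 1 signal and the lowest signal well above background. It is not a lower limit, since an undetected grade 1 level may lie above that lowest signal. The size depends on the background correction: with local backgrounds as measured the fitted POU1F1 value was 3.00-fold and was not called (limma adjusted p = 0.0753). With the deposited value table the fitted POU1F1 value was 163-fold (limma adjusted p = 8.62e-06), so its size is not settled. OPTC, MYH8 and TMEM132C also had a second probe with a smaller value, such as 0.15 for OPTC. COL2A1 had 2.67 and 1.64 by its further probes against 2.80 by the brightest, and MYH1 had 3.45, 1.89 and 0.68 against 3.40. The likeness is over 4 arrays that share the same 2 kinds of RNA. Nearness reflects the size of the difference and also how it varied between arrays, the dye orientations included. POU1F1 was close to CSN2 in fitted value (2.87 against 2.81) but lay at a distance of 0.70. Its ratios were 2.82 and 2.72 with grade 3 in Cy5 and 2.98 and 2.98 with the dyes exchanged. Nearness describes these 4 ratios and nothing further.

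The increase of the milk genes was set against other ways of processing. Scaling to spike-in controls gave the highest fold changes of both genes among the settings that used all 4 arrays, at 11.2-fold for CSN2 and 8.99-fold and 8.73-fold for LALBA. The controls themselves were lower in grade 3 by a log2 ratio of -0.67, and that scaling moved the median of all probes to 0.67. Leaving out any 1 array kept CSN2 between 6.59-fold and 7.50-fold and LALBA between 5.35-fold and 5.91-fold over both probes.

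**Figure D5:**
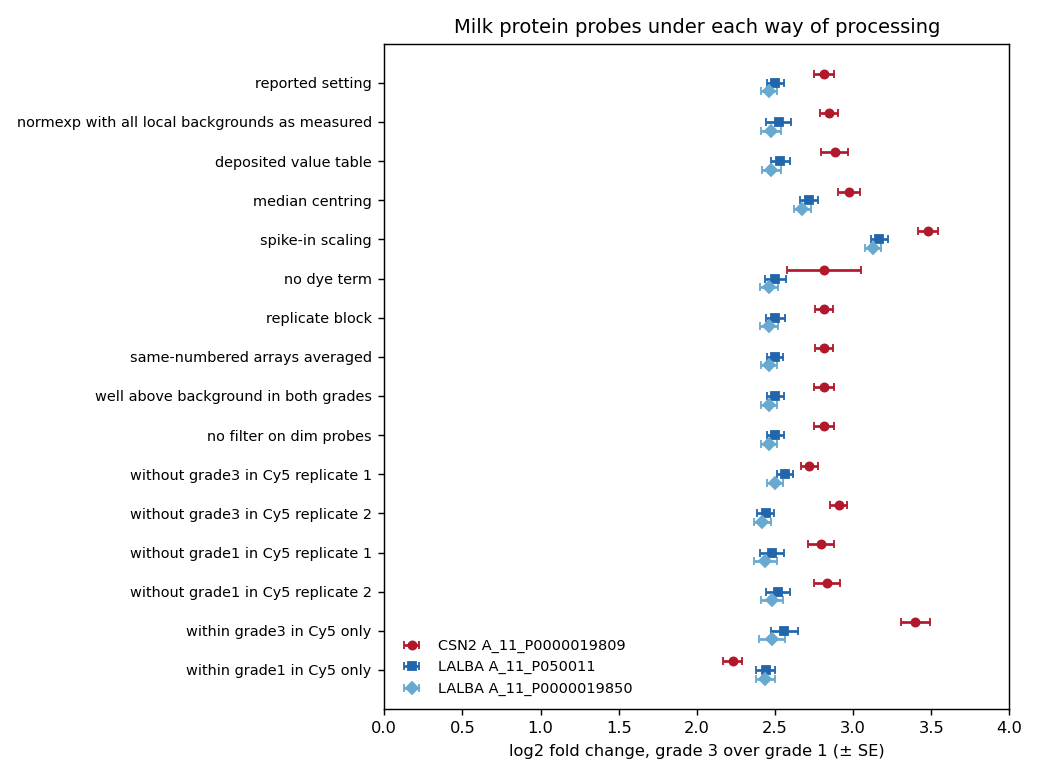
Log2 fold change of grade 3 over grade 1 (horizontal axis, ± SE) for CSN2 (red circles) and the LALBA probes (blue squares and diamonds) under each way of processing (vertical axis). All values lie above 2, LALBA is highest with spike-in scaling, and CSN2 ranges from 2.23 to 3.40 between the dye orientations.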

How the data were processed

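Total RNA of both grades was hybridised to 4 two-colour Agilent arrays of 1 slide. The submitters' processing notes name Agilent Feature Extraction, version 10.7.3.1, for reading the spots. Spot medians and local backgrounds are deposited as linear intensity values, per the file headers, and the deposited processed signals are intensity values after the software's background and dye normalization. The deposited LogRatio column is the log10 of Cy5 over Cy3, per the file headers, and the series' deposited value table holds the same log10 ratios turned to grade 3 over grade 1, to within 4.99e-06, with a median of 0 on each array. The dyes in the labels set the direction.

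The computations used R 4.3.3 with limma 3.58.1. Median signals were corrected with normexp (offset 50). Local backgrounds marked as outliers by the software, 151 to 2352 per array and channel, were replaced by the median of that array and channel, a step taken over from an earlier analysis of the same files in which the plain correction had failed on 1 channel. Arrays were loess-normalized, control spots having weight 0, and levels used Aquantile. Marked spots, 11 to 39 per array, were left out. Of 43603 probes, 35411 had signal well above background in every channel of one grade or of both, and were fitted with a grade and a dye term and eBayes, with 2 residual degrees of freedom and a prior of 7.49. Tests were two-sided, p-values were adjusted over all of them by Benjamini-Hochberg, and 0.05 was the threshold. Depth on arrays is signal over background: in each channel of each array 80.6% to 84.5% of probes passed the software's test of signal well above background, and the number of arrays limits the precision.

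Names came from RefSeq accessions in a gene table of the assembly UU_Cfam_GSD_1.0, which matched 1648 probes (3.78%); 925 named genes were tested, and the brightest probe stood for its gene in the lists. The arrays' design build is another assembly, so no coordinates are given, and probe sequences were not used here. The genes, lists and tests were chosen with earlier results of these data known. By rule the text names the members, the measured milk list genes and the 2 largest changes of each marker list. It also names the 5 named genes nearest to each member. From the signalling and synthesis lists the rule took called genes of at least 1.5-fold and a fixed set of receptors and kinases. No tested gene of these 2 lists reached 1.5-fold by its brightest probe. Other genes, called or not, were named outside this rule after their values were seen. Among them are GH1, SOCS3, SLC2A1, CA2, CLDN3, ERBB2, TCAP and CCL2. A simulation of the grade comparison on 35411 probes, 50 of them changed at each of 4 sizes, returned 49 of those at 1.25-fold and all 50 at 1.5-fold, at 2-fold and at 4-fold, and called 21 unchanged ones. Its noise was independent normal noise with the spread of the fit, and normalization was not repeated. It checks the fitting step only and does not give the error rate of the real comparison. The alternatives tried are given in the closing section.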

Additional observations from a re-analysis of the deposited data

Results flagged for a closer look

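The CSN2 difference was not the same in the dye orientations. The dye term, which measures how far the log2 ratio moves to either side when the dyes are exchanged, was 0.59 (limma adjusted p = 0.00145), with ratios of 3.59 and 3.21 when grade 3 was in Cy5 and 2.27 and 2.19 when grade 1 was. Neither LALBA probe had a called dye term.

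In 45 results, the ratios and levels of the 3 milk protein probes and the ratios of 36 other named genes, a single array standing apart was looked for with Dixon's critical value at 4 values. None of the milk protein results passed it, and 2 other genes did, where chance marks about 1 in 20. The log2 ratios of TFF3 were 1.97, 1.97 and 2.03 on 3 arrays and 1.45 on replicate 2 with grade 3 in Cy5, a gap of 0.89 of the range. Those of CTLA4 were -0.84, -0.84 and -0.82, and -0.57 on that array, a gap of 0.907 of the range.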

How the results depend on the processing

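CSN2 and both LALBA probes kept their direction and their call under every alternative run. The log2 fold change of CSN2 was 2.85 with local backgrounds as measured, 2.88 with the deposited value table, 2.97 with median centring and 3.48 with spike-in scaling, and leaving out each array gave 2.72 to 2.91. LALBA ranged from 2.42 to 2.50 by probe A_11_P0000019850 and from 2.44 to 2.56 by probe A_11_P050011 on leaving out each array. With the replicate number as a block CSN2 stayed at 2.81 and LALBA at 2.46 and 2.50, as they did with same-numbered arrays averaged; same-numbered arrays did not deviate together (correlation -0.09), and of the other named genes the replicate block changed only the call of CCND1 (adjusted p = 0.0448 from limma). With same-numbered arrays averaged CCND1 was not called (0.0512) and SREBF1 was (0.0497). Fits within 1 orientation were added after seeing the data.

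Counts of calls moved more. Local backgrounds as measured gave 2327 probes higher and 4411 lower in place of 11031 and 10801, and spike-in scaling 32964 and 1154. Over the milk, prolactin and synthesis lists together 5 genes were higher and 6 lower; this became 3 and 3 with backgrounds as measured, 9 higher with median centring, and 16 and 0 with spike-in scaling (limma, also 0 lower at an unadjusted p under 0.05). In the marker lists 10 were higher and 24 lower, against 6 higher with backgrounds as measured and 25 and 8 with spike-in scaling. Spike-in scaling turned GH1 to 0.21, GHR to 0.17, SOCS3 to 0.20, PGR to 0.095, PPARG to 0.38, CA2 to 0.087, ERBB2 to 0.64 and KDR to 0.054. Median centring turned ERBB2 to 0.21, and SLC2A1 was -0.037 within the arrays with grade 1 in Cy5. Without normalization the log2 level in grade 3 was 18.53 for CSN2 and 16.70 and 16.31 for LALBA, in place of 18.27, 16.41 and 16.03, and LALBA in grade 1 had 13.63 and 13.28 in place of 13.91 and 13.57. The causes of these shifts were not tested.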

Other observations

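Most probes near the LALBA pattern were unnamed, as were most probes of the array, of which 3.78% carried a name. Within a root mean square difference of 0.5 over the 4 log2 ratios lay 59 probes for LALBA probe A_11_P050011 and 65 for probe A_11_P0000019850. Of these 9 had a name in each case, a larger share than over all array probes, and this was not tested. For CSN2 it was 7 probes, 1 of them named, out of 35373 compared. Of the 20 gene entries nearest to CSN2 in the order of the RefSeq gene table, 10 on each side, 2 had a named probe, and neither was among the tested probes. Of the 20 around LALBA 1 was tested, ADCY6, an adenylate cyclase gene, with a log2 fold change of -0.0042 ± 0.05 (limma adjusted p = 0.945).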
